A study of Homo sapiens with 37 samples.

Results

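The 8 messenger RNAs described here encode the most used building blocks of the cytoskeleton: the actins ACTB and ACTG1, the alpha-tubulins TUBA1A, TUBA1B and TUBA1C, the beta-tubulins TUBB and TUBB4B, and the intermediate filament protein vimentin, VIM. They were taken by Ensembl gene ID, with no cut on their values (ACTB ENSG00000075624.12, ACTG1 ENSG00000184009.8, TUBA1A ENSG00000167552.12, TUBA1B ENSG00000123416.14, TUBA1C ENSG00000167553.13, TUBB ENSG00000196230.11, TUBB4B ENSG00000188229.5, VIM ENSG00000026025.12), and all 8 were found among the 60483 IDs of each of 2 deposited count tables. The list was made with earlier results of these data known. All 8 passed the count filter in both tables, which left 12427 tested IDs in unstressed cells and 16678 in the stress experiment.

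All libraries came from HEK293T cells, a human embryonic kidney line that carries the SV40 large T antigen. The cells expressed APEX, an engineered peroxidase that, given biotin-phenol and hydrogen peroxide, attaches biotin to molecules near it. Cells received 500 µM biotin-phenol (30 min) and then 1 mM H2O2 (1 min), per the labels. Bead-bound RNA (pulldown) and the RNA before binding (input) were sequenced separately, so the ratio of pulldown to input is a readout of which transcripts lay near the fusion protein. In the unstressed table, 5 constructs had 2 inputs and 2 pulldowns each: APEX-CBX1, in which CBX1 is a chromatin protein; C1-APEX, whose name the labels do not spell out; APEX-GFP, the fusion without a cellular partner; APEX-eIF4E, the cap-binding protein; and APEX-eIF4A, the RNA helicase that acts with it at the start of translation. In the stress table every library carried APEX-eIF4A: T0 without stress, T20 under heat shock and hippuristanol (an inhibitor of eIF4A) had 2 inputs and 2 pulldowns, T4 under heat shock had 1 of each, and the vehicle DMSO had 1 input and 2 pulldowns. The unit of T and the doses are not given in the labels, the inputs titled for hippuristanol carry a heat shock label, and the promoter and the number of clones behind each line are not given. The IDs could not be paired with gene symbols beyond the 8 chosen, so markers of HEK293T and of other cells were not checked.

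Actin polymerises into the filaments of the cell cortex, tubulin dimers of an alpha and a beta chain build microtubules, and vimentin forms intermediate filaments. These mRNAs are translated on cytosolic ribosomes, and tubulin mRNAs are known to be degraded during their translation when free tubulin dimers are in excess. Members of each family are so alike in sequence, with many pseudogenes, that a short read can match several of them. How such reads were counted is not given in the sources used here, so a difference between ACTB and ACTG1, or among tubulins, carries that uncertainty.

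Total counts were 1419968 to 2629957 in the 10 unstressed inputs and 1718517 to 3276410 in the 10 unstressed pulldowns. In the stress table they were 4540426 to 7782943 in 8 inputs and 707356 to 1221213 in 9 pulldowns. The 8 mRNAs together held 1814 to 4500 counts per unstressed input, 1947 to 5724 per unstressed pulldown, 29097 to 54918 per stress input and 2271 to 6006 per stress pulldown. The least counted value was 43, for TUBB in an unstressed library. The 10 IDs with the most counts took 68.6% to 75.3% of an unstressed input and 55.6% to 70.0% of an unstressed pulldown, against 6.08% to 16.3% and 16.7% to 30.7% in the stress table. Levels are therefore given as TMM-normalised CPM, counts brought to a common library total after the IDs that differ most are set aside, and other scalings are shown where they change a direction. The 2 C1-APEX pulldowns resembled each other least among the unstressed pairs (correlation of log2 CPM over IDs, 0.761), and results with and without each are given below. Pulldown pairs of the stress table, over the IDs tested there, agreed less than that. Their correlations were 0.613 (T20), 0.615 (DMSO), 0.649 (T0) and 0.730 (hippuristanol), which limits what the stress pulldowns can show.

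The genes lie on 6 chromosomes in assembly GRCh38.p14: ACTB at chr7:5527148-5530601, ACTG1 at chr17:81509971-81512799, TUBB at chr6:30720352-30725422, TUBB4B at chr9:137241287-137243707 and VIM at chr10:17228241-17237593. The alpha-tubulin genes stand in a row on chromosome 12, TUBA1B at chr12:49127782-49131395, TUBA1A at chr12:49184795-49189080 and TUBA1C at chr12:49227926-49274600, with gaps of 53399 and 38845 bases between them. RefSeq promoter windows (250 bases before to 50 after a start) were matched for 7 of the 8 genes, 10 sequences in all; ACTB was not matched and not searched. Of these, 5 windows of 170 bases ending at the base before the start are shown, 5′ to 3′ on the gene's strand. Capitals mark the motifs searched on both strands, namely the CArG box, CCAAT (or ATTGG on the other strand), TATATA and GAANNTTC. Each window shown holds a marked motif, while the sequences of TUBA1B and of the second TUBB start held none.
ACTG1 (chr17:81512800-81512969, strand minus): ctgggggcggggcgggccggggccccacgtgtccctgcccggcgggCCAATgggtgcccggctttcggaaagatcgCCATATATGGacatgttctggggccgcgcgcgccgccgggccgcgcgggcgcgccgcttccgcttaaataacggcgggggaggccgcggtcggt
TUBA1A (chr12:49189081-49189250, strand minus): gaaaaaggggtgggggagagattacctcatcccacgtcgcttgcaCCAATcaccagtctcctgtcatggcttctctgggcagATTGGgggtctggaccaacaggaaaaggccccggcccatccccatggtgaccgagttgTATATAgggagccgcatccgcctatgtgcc
TUBA1C, the third annotated start (chr12:49264912-49265081, strand plus): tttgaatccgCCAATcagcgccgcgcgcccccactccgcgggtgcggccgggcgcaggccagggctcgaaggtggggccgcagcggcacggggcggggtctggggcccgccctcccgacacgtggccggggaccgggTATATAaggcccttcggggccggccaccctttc
TUBB4B (chr9:137241117-137241286, strand plus): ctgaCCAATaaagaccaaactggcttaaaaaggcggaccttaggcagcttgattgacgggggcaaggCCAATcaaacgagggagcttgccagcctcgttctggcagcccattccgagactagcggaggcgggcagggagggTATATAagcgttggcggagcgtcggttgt
VIM (chr10:17228071-17228240, strand plus): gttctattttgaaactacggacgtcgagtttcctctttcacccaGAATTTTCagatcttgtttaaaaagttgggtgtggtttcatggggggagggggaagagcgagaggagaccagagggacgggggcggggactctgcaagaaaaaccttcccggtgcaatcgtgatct
The CArG box, the site of serum response factor, was found in ACTG1, 94 bases before the start, and 1.293% of 35116 promoter windows held one. CCAAT was found in 7 of the 10 sequences (34.61% of all windows) and TATATA in 3 (3.987% of all windows), those of TUBB4B, TUBA1A and the third start of TUBA1C, at 29, 30 and 33 bases before the start. GAANNTTC, the core of the heat shock element, was found in 4 of the 10 (6.769% of all windows), among them VIM at 126 bases before the start. The windows of the first 2 TUBA1C starts overlap, so 1 CCAAT and 1 GAANNTTC site there are each counted in both. These matches describe letters in a window, with no test of binding. No 2 of the sought motifs overlapped in the windows shown.

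On the TMM scale, pulldowns held less of each of these mRNAs than the inputs in all 5 unstressed constructs, and 13 of the 40 differences passed the test. The pulldown pair lay below the input pair without overlap in 40 of 40 combinations of mRNA and construct, with a median log2 ratio of pulldown to input between -0.42 and -0.69 per construct. Over all tested IDs such a gap on the lower side was found in 24.7% (CBX1), 23.2% (C1), 25.5% (GFP), 21.6% (eIF4E) and 22.8% (eIF4A). The sign of the difference depended on the scaling for eIF4E and eIF4A. Values follow by family, each as log2(pulldown/input) with its standard error (SE) and the Benjamini-Hochberg adjusted p of edgeR's quasi-likelihood test over all tested IDs, called at 0.05.

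**Figure D1:**
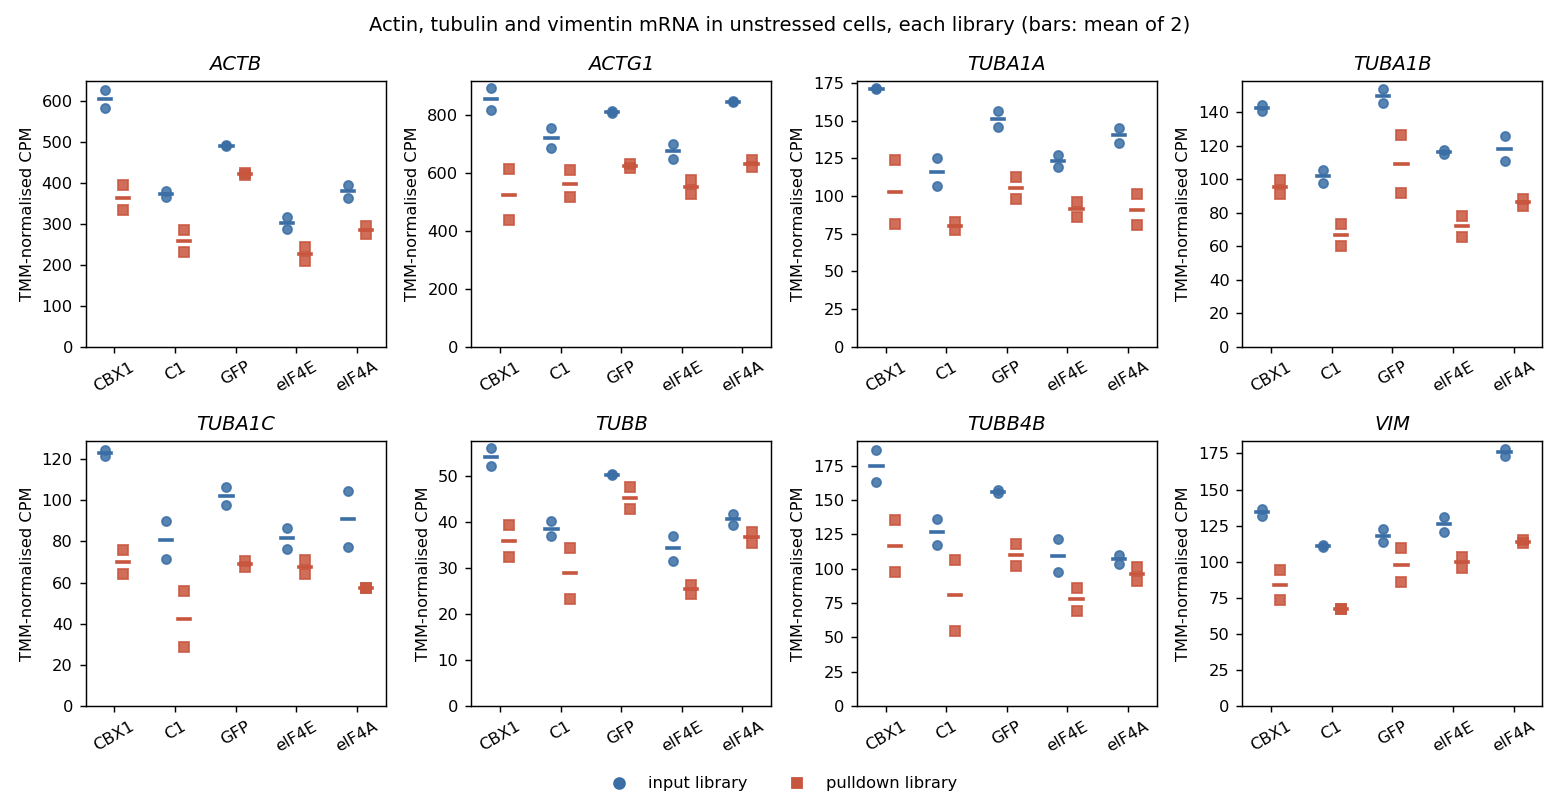
Level of each mRNA (TMM-normalised CPM, vertical axis, linear from 0) in the 20 unstressed libraries by construct; circles are inputs, squares pulldowns and bars the mean of 2. In each panel the squares of a construct lie below its circles, and the CBX1 inputs of ACTB, at 628 and 584 CPM, are the highest of that panel.

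ACTB, cytoplasmic beta-actin, stood at 628 and 584 CPM in the CBX1 inputs and at 334 and 394 CPM in the CBX1 pulldowns. With C1 its inputs were at 381 and 366 CPM and its pulldowns at 231 and 284 CPM. Both pairs were well apart, and the decrease was called in each: log2 ratio -0.74 ± 0.12 (edgeR adjusted p = 0.000484), 1.67-fold lower, for CBX1 and -0.53 ± 0.13 (edgeR adjusted p = 0.0108), 1.45-fold lower, for C1. In GFP cells ACTB had inputs at 490.2 and 493 CPM and pulldowns at 420.3 and 424 CPM, the narrowest of its gaps (-0.22 ± 0.12, edgeR adjusted p = 0.382). The eIF4E libraries held it at 288 and 316 CPM in inputs and 209 and 243 CPM in pulldowns, and the eIF4A libraries at 364 and 396 CPM and 294 and 275 CPM. Neither of these passed the test (-0.42 ± 0.13, edgeR adjusted p = 0.0796, and -0.42 ± 0.12, edgeR adjusted p = 0.0755). ACTG1, cytoplasmic gamma-actin, was called in CBX1 cells, with 896 and 817 CPM in inputs and 437 and 614 CPM in pulldowns (-0.71 ± 0.13, edgeR adjusted p = 0.00167). Its ratio in the other 4 constructs lay between -0.42 (eIF4A) and -0.29 (eIF4E), none of them called.

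Among the alpha-tubulins, TUBA1B was called in 3 constructs. It stood at 144 and 141 CPM in CBX1 inputs and 91.4 and 99.4 CPM in pulldowns, a log2 ratio of -0.58 ± 0.15 (edgeR adjusted p = 0.0294). In C1 cells the inputs were at 106 and 97.7 CPM and the pulldowns at 59.9 and 73.1 CPM (-0.61 ± 0.17, edgeR adjusted p = 0.027). The eIF4E inputs held it at 118 and 115 CPM and the pulldowns at 65.7 and 78.1 CPM, the single member called for that construct (-0.69 ± 0.16, edgeR adjusted p = 0.014). The pair of TUBA1B values furthest apart was that of the GFP pulldowns, at 91.7 and 126 CPM. TUBA1A was called with CBX1 (171 and 172 against 81.3 and 124 CPM, -0.75 ± 0.16, edgeR adjusted p = 0.00685) and with eIF4A (145 and 135 against 101 and 80.8 CPM, -0.62 ± 0.17, edgeR adjusted p = 0.0477). TUBA1C gave the widest gap of any member, in C1 cells, with inputs at 89.7 and 71.7 CPM and pulldowns at 28.9 and 56.1 CPM (-0.91 ± 0.22, edgeR adjusted p = 0.0129, 1.88-fold lower). The first C1 pulldown was the lower of the pair. TUBA1C had the widest GFP gap as well, with inputs at 106 and 97.7 CPM and pulldowns at 67.6 and 70.6 CPM (-0.56 ± 0.20, edgeR adjusted p = 0.13). With CBX1 TUBA1C was called as well, from 124 and 122 CPM to 64.0 and 76.1 CPM (-0.81 ± 0.19, edgeR adjusted p = 0.0152).

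The beta-tubulins were also lower in pulldowns but passed the test in none of the 5 constructs. With eIF4A both of their gaps were narrower than those of the other members. TUBB, the common beta-tubulin and the least counted of the 8, ranged from -0.60 with CBX1 (edgeR adjusted p = 0.105) to -0.14 with eIF4A (edgeR adjusted p = 0.883). TUBB4B, another broadly expressed beta-tubulin, ranged from -0.63 with C1 (edgeR adjusted p = 0.0695) to -0.16 with eIF4A (edgeR adjusted p = 0.857). Its C1 pulldowns lay far apart, at 55.0 and 106 CPM, below the inputs at 117 and 136 CPM. VIM was called in 3 constructs. It stood at 137 and 132 CPM in CBX1 inputs and 73.3 and 94.6 CPM in pulldowns (-0.68 ± 0.15, edgeR adjusted p = 0.00637). In C1 cells it was at 112 and 110.3 CPM in inputs and 67.5 and 67.2 CPM in pulldowns, closely agreeing pairs (-0.72 ± 0.16, edgeR adjusted p = 0.00685). The eIF4A inputs held 178 and 173 CPM of VIM, the highest of the 20 libraries, and the eIF4A pulldowns 113 and 115 CPM (-0.63 ± 0.14, edgeR adjusted p = 0.0141).

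**Figure D2:**
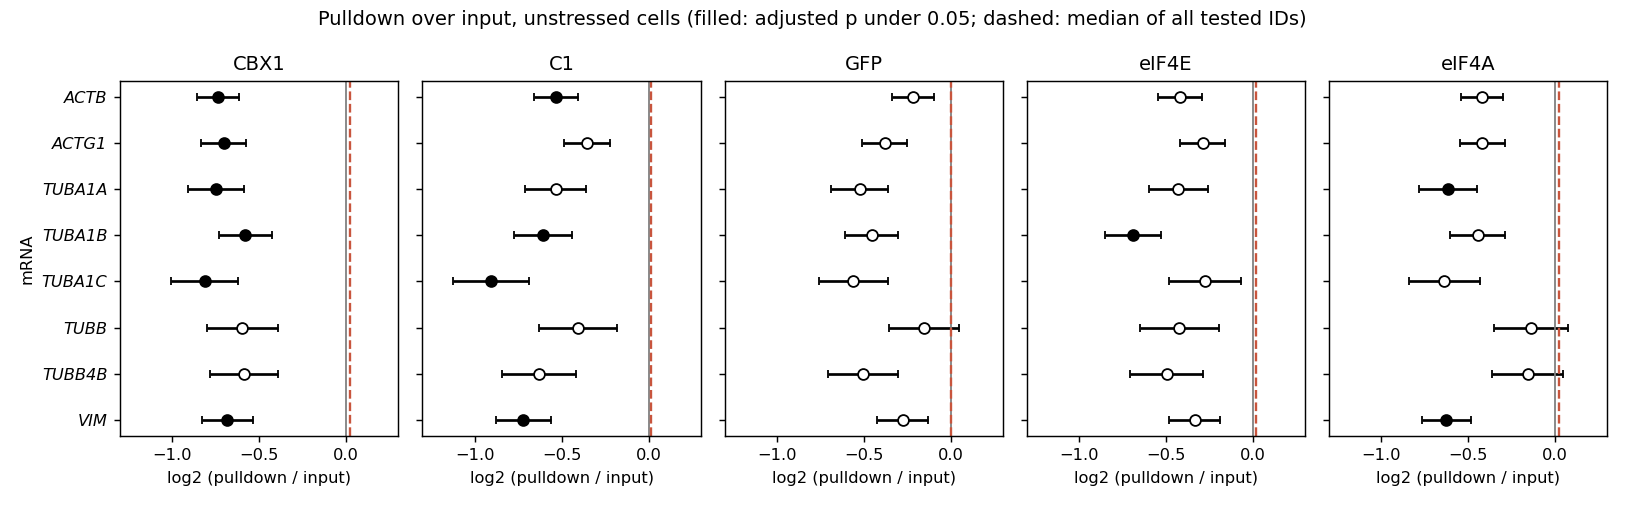
Log2 ratio of pulldown to input (horizontal axis) for the 8 mRNAs in each unstressed construct; points are edgeR estimates from 2 libraries per side, bars ± 1 SE, filled points adjusted p under 0.05, and the dashed line the median of all tested IDs. Each point lies to the left of the dashed line, with 6 filled points for CBX1, 4 for C1, 2 for eIF4A, 1 for eIF4E and 0 for GFP.

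By construct, 6 of 8 members were called lower with CBX1, where 2.3% of all tested IDs were called lower. The count was 4 of 8 with C1 (3.55% of all), 2 of 8 with eIF4A (1.02%), 1 of 8 with eIF4E (1.29%) and 0 of 8 with GFP (2.09%), and no member was called higher. For GFP, 5 of 8 members had an unadjusted edgeR p under 0.05, as did 16.2% of all tested IDs, and DESeq2 called 0 members. The members' medians were -0.69 (CBX1), -0.57 (C1), -0.42 (GFP), -0.42 (eIF4E) and -0.43 (eIF4A), against medians of all tested IDs between 0.000444 (GFP) and 0.0228 (eIF4A). The members are well counted, so the 2074 IDs averaging 5 or more on the log2 CPM scale are the nearer background: their medians lay between -0.094 (CBX1) and 0.0487 (eIF4E), and all 8 members lay below that median in each construct. The shares of calls, and of gaps without overlap above, were taken over all tested IDs only, not over these 2074. With counts summed within families, actin was called for CBX1 (-0.72 ± 0.12, edgeR adjusted p = 0.000841) and C1 (-0.42 ± 0.12, edgeR adjusted p = 0.0426). Summed alpha-tubulin was called for CBX1, C1, GFP (-0.51 ± 0.13, edgeR adjusted p = 0.0259) and eIF4A (-0.57 ± 0.13, edgeR adjusted p = 0.0176), and summed beta-tubulin for none.

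Individual calls rested on single libraries. The counts that follow are of members only. The share of all tested IDs called in the same fits is not given beside them, so they cannot be read against other IDs. For CBX1, 6 calls became 0 without pulldown replicate 1, 1 (ACTB) without input replicate 1, 2 (ACTB and ACTG1) without input replicate 2, and 5 without pulldown replicate 2. For C1, 4 calls became 0 without input replicate 1, 1 (TUBA1C) without input replicate 2, 1 (VIM) without pulldown replicate 1 and 8 without pulldown replicate 2. The eIF4E call of TUBA1B was lost when input replicate 1, input replicate 2 or pulldown replicate 1 was left out, and both eIF4A calls were lost whichever of the 4 libraries was left out. For GFP, TUBA1B was called when pulldown replicate 2 was left out. The members' median remained negative in each of these fits, from -0.49 to -0.87 for CBX1 and from -0.45 to -0.76 for C1.

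The direction itself depended on the scaling. In each construct the 10 most counted IDs took a smaller share of both pulldowns than of either input, and the part of this in the ratios below was not tested beyond the scalings given. Scaled by total counts alone, the median of all tested IDs moved to 0.88 for eIF4E and 0.82 for eIF4A. On that scale all 8 members were higher in pulldown than in input, with medians of 0.45 and 0.37 and 4 members called higher in each, where 35.6% and 30.8% of all tested IDs were called higher. ACTB, for example, then had a log2 ratio of 0.45 with eIF4E (edgeR adjusted p = 0.0134) and 0.38 with eIF4A (edgeR adjusted p = 0.034). For CBX1 and C1 the members remained lower on that scale (medians -0.32 and -0.42, with 0 and 1 called), and for GFP 6 were lower and 2 higher (median -0.18). Under each of the 4 scalings run, all 8 members lay below the median of all tested IDs in all 5 constructs, by a median of -0.42 (GFP) to -0.72 (CBX1) with TMM and -0.42 to -0.73 with total counts. Of all IDs called, the share called higher was 40.9% with TMM and 92.9% with total counts for CBX1, 45.1% and 67.6% for C1, and 48.2% and 84.9% for GFP. It was 48.7% and 98.6% for eIF4E, and 53.0% and 98.6% for eIF4A. The sign of the ratio thus changed with the scaling. The members' place below the median of all tested IDs did not, but a change of scaling moves all IDs of a comparison nearly alike. That agreement over the 4 scalings is therefore no separate check of the members' place.

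**Figure D3:**
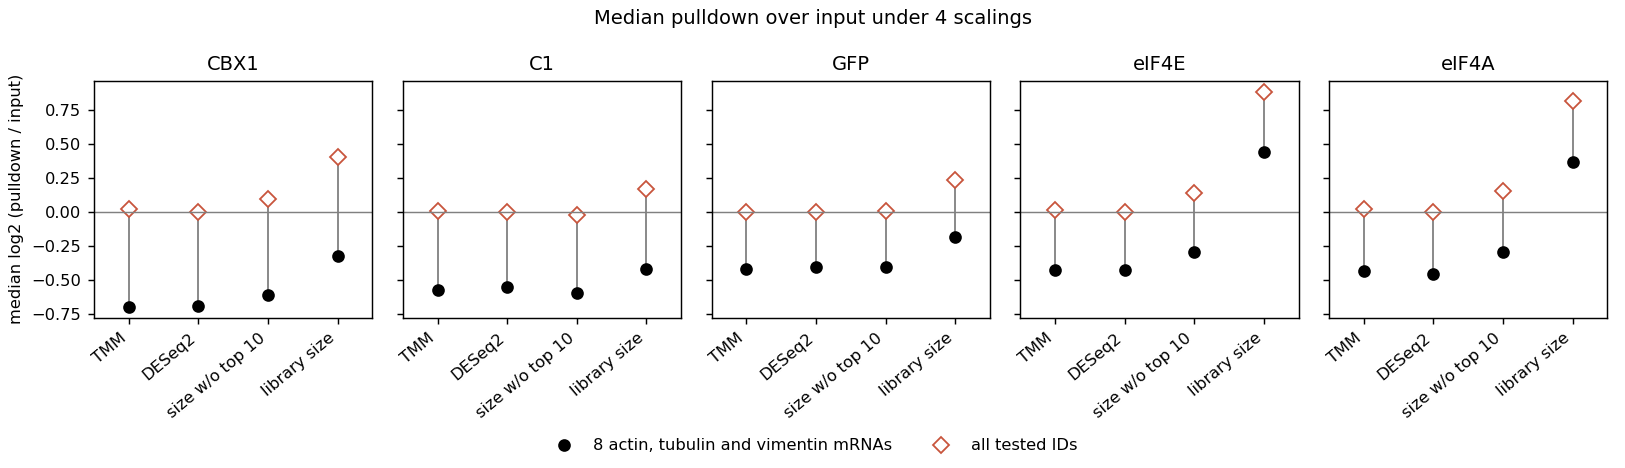
Median log2 ratio of pulldown to input (vertical axis) of the 8 mRNAs (filled circles) and of all tested IDs (open diamonds) under 4 scalings (horizontal axis), by unstressed construct. The circles stay below the diamonds throughout, while with total counts both rise above 0 for eIF4E and eIF4A.

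Whether a partner protein brought APEX nearer to these mRNAs than GFP did is read from the difference between 2 pulldown-over-input ratios. No member was called in any of the 6 such comparisons, where 0.161% (CBX1 with GFP), 0.0644% (CBX1 with C1) and 0% (the other 4) of all tested IDs were called. The 4 comparisons with GFP share the GFP libraries. An unadjusted edgeR p under 0.05 was reached by ACTB for CBX1 (7.33% of all tested IDs) and by VIM for C1 (8.41%), and by no member elsewhere, and DESeq2 called 0 members in each. ACTB against GFP differed by -0.52 ± 0.17 for CBX1 (95% interval -0.87 to -0.17, edgeR adjusted p = 0.372), by -0.31 ± 0.17 for C1 (-0.67 to 0.04), by -0.20 ± 0.17 for eIF4E (-0.56 to 0.16) and by -0.20 ± 0.17 for eIF4A (-0.56 to 0.15). VIM differed by -0.45 ± 0.22 for C1 (edgeR adjusted p = 0.592) and by -0.35 ± 0.21 for eIF4A (95% interval -0.77 to 0.07). For eIF4E against GFP the widest difference was TUBA1C, 0.28 ± 0.29 (95% interval -0.30 to 0.87). The members' medians against GFP were -0.29 (CBX1), -0.20 (C1), -0.03 (eIF4E) and -0.06 (eIF4A), beside -0.14, -0.08, 0.03 and 0.02 for the 2074 well-counted IDs. Single pulldowns moved these medians. Without CBX1 pulldown replicate 1 the CBX1 median was -0.10 with 6 of 8 negative, and without replicate 2 it was -0.56. For C1 it was -0.01 with 4 of 8 negative without pulldown replicate 1, and -0.49 with 1 member called without replicate 2, where 7.09% of all tested IDs were called. For eIF4E and eIF4A the sign depended on the scaling, with medians of 0.59 and 0.50 by total counts. Between the initiation factors the widest difference was TUBA1C, eIF4A minus eIF4E -0.36 ± 0.29 (95% interval -0.95 to 0.23), and between CBX1 and C1 it was ACTG1, -0.35 ± 0.18 (95% interval -0.73 to 0.03). The intervals are wide enough to hold changes of either sign for most members. Compared as pulldowns alone, without their inputs, C1 had 3 members called below GFP (ACTB, TUBA1B and VIM; 3.41% of all tested IDs), eIF4E 3 (ACTB, TUBA1B and TUBB; 2.71%) and eIF4A 1 (ACTB; 0.732%). CBX1 had 3 called above C1 (ACTB, TUBA1B and TUBA1C; 4.6% of all tested IDs).

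Inputs of the 4 other lines were also compared with the GFP inputs, which the 4 comparisons share. ACTB was lower in eIF4E inputs than in GFP inputs: 288 and 316 CPM against 490.2 and 493 CPM, a log2 difference of -0.70 ± 0.12 (edgeR adjusted p = 0.00133), 1.63-fold lower. In bulk RNA such a difference between lines cannot be told apart from a difference in how many cells hold the transcript. It was the only member called in the 4 comparisons of inputs with GFP, where 1.43% of all tested IDs were called lower for eIF4E and 0.0885%, 0.33% and 0.579% in either direction for CBX1, C1 and eIF4A. Without the first eIF4E input the call was lost (-0.64, edgeR adjusted p = 0.0703), and with ACTB and ACTG1 summed it was lost too (-0.41 ± 0.12, edgeR adjusted p = 0.0693). In C1 inputs all 8 members lay below both GFP inputs (23.6% of all tested IDs did), in eIF4E inputs 7 of 8 (26.8%), and in CBX1 inputs 7 of 8 lay above them (20%). The widest difference was ACTB for CBX1 inputs (0.30 ± 0.12, edgeR adjusted p = 0.923) and TUBA1B for C1 inputs (-0.56 ± 0.16, edgeR adjusted p = 0.155). Unadjusted edgeR p-values under 0.05 numbered 1 of 8 for CBX1 (4.58% of all tested IDs), 3 for C1 (8.47%), 4 for eIF4E (13.8%) and 4 for eIF4A (8.64%). VIM went the other way in eIF4A inputs, 178 and 173 CPM against 113 and 123 CPM in GFP inputs (0.57 ± 0.15, edgeR adjusted p = 0.0715). This missed the threshold, whereas DESeq2 called it (0.60, DESeq2 adjusted p = 0.00634), as did edgeR on the 10 inputs alone (0.60, edgeR adjusted p = 0.00011). With the inputs alone 2 members were called for C1 (ACTB and TUBA1B, both lower), 4 for eIF4E (ACTB, TUBA1B, TUBB and TUBB4B, all lower) and 3 for eIF4A (ACTB and TUBB4B lower, VIM higher). That fit called 4.66%, 12.6% and 5.8% of its tested IDs in either direction, so it also called more IDs in general. DESeq2 called 0 members for CBX1 and 1 for C1 (TUBA1B, -0.54, DESeq2 adjusted p = 0.0445).

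Ratios of 2 members within a library need no scaling, and VIM to ACTB differed between the lines. Per 100 ACTB counts, the CBX1 inputs held 21.7 and 22.6 VIM counts, the GFP inputs 23.1 and 24.9 and the C1 inputs 29.3 and 30.2. The eIF4E inputs held 45.5 and 38.3 and the unstressed eIF4A inputs 48.9 and 43.8. All 4 eIF4E and eIF4A inputs thus lay above all 6 of the others. The same held for the pulldowns, at 23.0 ± 1.43 (CBX1), 23.2 ± 4.11 (GFP), 26.4 ± 3.91 (C1), 44.5 ± 7.04 (eIF4E) and 40.1 ± 2.46 (eIF4A; mean ± SD, n = 2 each). Pulldowns overlapped with their own inputs for CBX1, GFP and eIF4E and lay below both inputs for C1 and eIF4A. Per 100 ACTG1 counts, the gap between lines was narrower. VIM then stood at 20.2 and 17.3 in the eIF4E inputs and at 21.0 and 20.5 in the eIF4A inputs. The highest of the other inputs was 16.3, in C1. On that measure the pulldowns of the lines overlapped, with 17.5 in an eIF4A pulldown and 17.8 in a GFP pulldown. With 2 libraries per group an exact 2-sided permutation test cannot go below p = 0.333, so the gap between lines is given without a test. The share of ACTB in the actin counts was 41.5% ± 0.317 in CBX1 inputs, 37.7% ± 0.0487 in GFP, 34.2% ± 2.23 in C1, 31.0% ± 1.31 in eIF4A and 30.9% ± 0.244 in eIF4E inputs (SD, n = 2 each). TUBA1B made up 32.6% ± 0.253 (CBX1) to 37.2% ± 1.07 (GFP) of alpha-tubulin counts in unstressed inputs (SD, n = 2 each). Shares of counts depend on transcript length and on reads that fit several members, so only their differences between libraries are described.

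**Figure D4:**
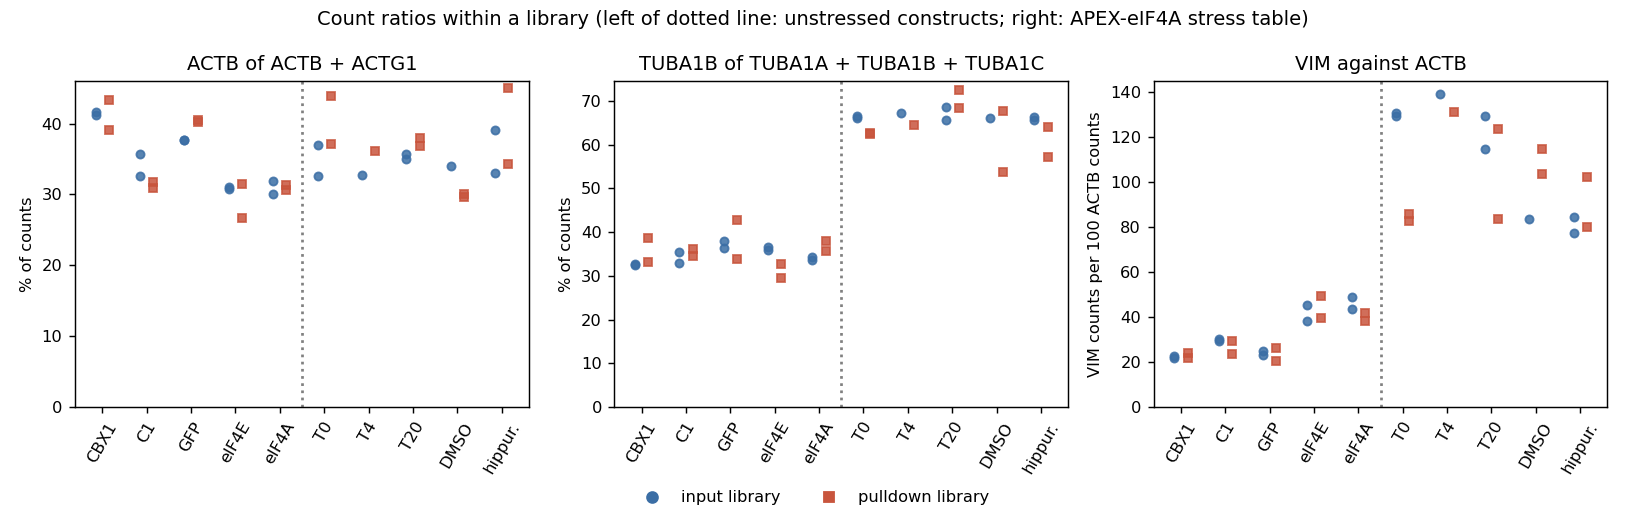
Count ratios within each library: ACTB as percent of the 2 actins, TUBA1B as percent of the 3 alpha-tubulins, and VIM counts per 100 ACTB counts (vertical axes, linear from 0), by construct and, right of the dotted line, by condition of the APEX-eIF4A stress table; circles are inputs, squares pulldowns. VIM per 100 ACTB is higher in the eIF4E and eIF4A libraries than in those of CBX1, C1 and GFP, and the share of TUBA1B is higher in all stress-table libraries.

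In the stress table the same mRNAs showed no called difference between pulldown and input. Pulldowns lay below inputs without overlap for 5 of 8 members at T0, 6 at T20 and 3 under hippuristanol, where 39.5%, 37.9% and 36.4% of all tested IDs did. At T0, 7 of 8 had a negative log2 ratio (median -0.25), at T20 7 of 8 (-0.39) and under hippuristanol 5 of 8 (-0.11). None of the 8 was called by edgeR or by DESeq2 at any of the 3 conditions, where 0.36%, 0.372% and 0.252% of all tested IDs were called by edgeR. Unadjusted edgeR p-values under 0.05 numbered 2, 2 and 0 of 8, against 10.7%, 13.1% and 5.76% of all tested IDs. All tested IDs had medians of -0.54, -0.29 and -0.36, and the 4347 IDs averaging 5 or more on the log2 CPM scale (well-counted IDs) had -0.31, -0.14 and -0.18. The members' median minus that of well-counted IDs was thus 0.0615 at T0, -0.248 at T20 and 0.0734 under hippuristanol. Without T0 input replicate 1 the T0 median of the members was -0.39, beside -0.40 for all tested IDs. With DESeq2 size factors the members' medians were 0.06, -0.20 and 0.08, so their sign at T0 and under hippuristanol depended on the scaling. VIM had the widest gap, with T0 inputs at 1119 and 1441 CPM and T0 pulldowns at 635 and 816 CPM (-0.82 ± 0.26, edgeR adjusted p = 0.304). It was called only when scaled by total counts (-1.31, edgeR adjusted p = 0.0111) or by total counts without the 10 most counted IDs (-1.05, edgeR adjusted p = 0.0488). The VIM to ACTB ratio moved alongside: 130.1 ± 0.702 VIM counts per 100 ACTB counts in T0 inputs and 84.4 ± 2.20 in T0 pulldowns (SD, n = 2 each), while the T20 pulldowns were 83.5 and 124 and did not stand apart from the T20 inputs (122 ± 10.3). Per 100 ACTG1 counts the T0 pairs overlapped, at 62.6 and 76.4 VIM counts in inputs and 50.6 and 64.8 in pulldowns. At T20 the widest gap was TUBA1A (-0.68 ± 0.32, edgeR adjusted p = 0.364), with inputs at 284 and 268 CPM and pulldowns at 196 and 149 CPM. Under hippuristanol it was TUBB (-0.40 ± 0.42, edgeR adjusted p = 0.992), with inputs at 156 and 146 CPM and pulldowns at 91.8 and 137 CPM.

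Inputs at T20, under heat shock, held all 8 mRNAs at lower mean levels than inputs at T0, with log2 differences from -0.27 (TUBB4B) to -0.47 (TUBB), none of them called. ACTG1 went from 1787 and 1885 CPM to 1581 and 1237 CPM and VIM from 1119 and 1441 CPM to 1009 and 859.5 CPM, both without overlap. TUBB stood at 149 and 128 CPM at T0 and 109.8 and 90.0 CPM at T20 (-0.47 ± 0.42, edgeR adjusted p = 1). For 6 of 8 members the T20 inputs lay below the T0 inputs without overlap, against 16.8% of all tested IDs. The members' median was -0.37, beside 0.01 for all tested IDs and -0.19 for the 4347 IDs averaging 5 or more on the log2 CPM scale. All 8 were negative under each of the 4 scalings, with a median of -0.17 when scaled by total counts. Without T20 input replicate 2 the median was -0.20, and without T0 input replicate 2 it was -0.27, with TUBB4B turning to 0.06. With all libraries 0.042% of all tested IDs were called, no member had an unadjusted edgeR p under 0.05, and DESeq2 called 0 members. How many IDs are called depends on the fit: 7 here, 167 with inputs alone and 379 with only these 4 libraries, with 0 members in each.

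In the pulldowns 7 of 8 members were lower at T20 than at T0, 6 of them without overlap (12.9% of all tested IDs), and none was called (0.138% of all tested IDs were). TUBA1C had the widest difference and the single unadjusted edgeR p under 0.05, at 373 and 444 CPM in T0 pulldowns and 165 and 225 CPM in T20 pulldowns (-1.06 ± 0.38, 95% interval -1.85 to -0.27, edgeR adjusted p = 0.189). Its inputs were at 319 and 325 CPM and 283 and 243 CPM, so the T0 pulldowns lay above their inputs and the T20 pulldowns below theirs. The difference of those 2 ratios was -0.77 ± 0.53 (95% interval -1.87 to 0.33, edgeR adjusted p = 0.768). TUBB4B was the exception, at 457 and 289 CPM at T0 and 439.6 and 350.2 CPM at T20, with overlapping pairs. The sign in pulldowns depended on scaling. By total counts the members' median was 0.04 with 4 of 8 negative, beside 0.51 for all tested IDs. With TMM it was -0.41, beside 0.09 for all tested IDs and -0.0011 for the 4347 well-counted IDs. Corrected for inputs, no member was called, where 0% of all tested IDs were, and no member had an unadjusted edgeR p under 0.05. DESeq2 called 0 members in both comparisons. The median of the input-corrected differences was -0.09, beside 0.20 for all tested IDs and 0.165 for the well-counted IDs.

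**Figure D5:**
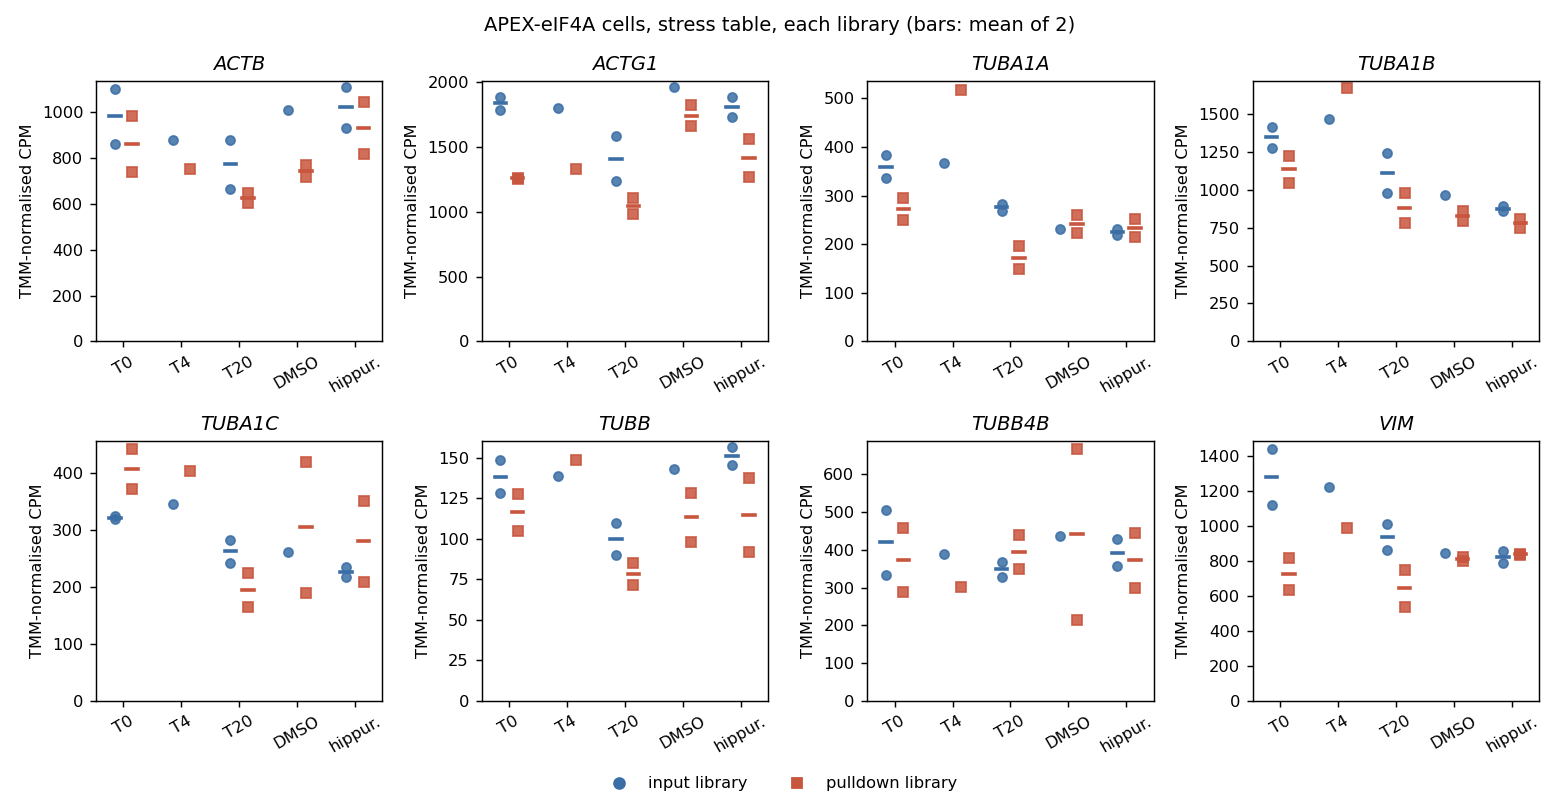
Level of each mRNA (TMM-normalised CPM, vertical axis, linear from 0) in the 17 libraries of the stress table by condition; circles are inputs, squares pulldowns and bars the mean of 2 where 2 exist. All T20 inputs of ACTG1, TUBA1A, TUBA1B, TUBA1C, TUBB and VIM lie below their T0 inputs, and the DMSO pulldowns of TUBB4B, at 215 and 666 CPM, are far apart.

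Hippuristanol was compared with DMSO in the pulldowns, the fraction with 2 libraries on each side. No member was called by edgeR or DESeq2 and none had an unadjusted edgeR p under 0.05, and edgeR called 0% of all tested IDs. ACTB had the largest estimate, with 1044 and 818 CPM under hippuristanol and 769 and 715 CPM under DMSO (0.33 ± 0.27, 95% interval -0.23 to 0.88, edgeR adjusted p = 0.614). ACTG1 went the other way, at 1271 and 1563 CPM and 1823 and 1659 CPM, and with both actins summed the difference was -0.08 ± 0.22 (edgeR adjusted p = 0.973). VIM was at 834 and 838 CPM and 798 and 819.9 CPM (0.05 ± 0.26, 95% interval -0.49 to 0.59). Spread between DMSO replicates was the limit for TUBA1C, at 190.2 and 420.2 CPM, and for TUBB4B, at 215 and 666 CPM, whose interval was -1.09 to 0.61. Groups did not overlap for 2 members on the higher side (18.8% of all tested IDs) and 1 on the lower side (9.61%). The single DMSO input was not tested. It held TUBA1B at 967 CPM and VIM at 845 CPM, beside 857 and 893 CPM and 858 and 786 CPM in the hippuristanol inputs and 1275 and 1415 CPM and 1119 and 1441 CPM in the T0 inputs. TUBA1A, TUBA1B, TUBA1C and VIM were below both T0 inputs in the DMSO input and in both hippuristanol inputs. ACTB, ACTG1, TUBB and TUBB4B were not. ACTG1, for example, stood at 1960 CPM in the DMSO input, above the T0 inputs at 1787 and 1885 CPM. The share of all tested IDs with such a gap is not given.

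T4 had 1 input and 1 pulldown and so no replicate check. In its input ACTB and VIM lay within the range of the T0 inputs and TUBA1B above it, with ACTB at 877 CPM, TUBA1B at 1465 CPM and VIM at 1219.9 CPM. The T4 pulldown held TUBA1A at 518 CPM, above the T0 pulldowns at 249.8 and 296 CPM and the T20 pulldowns at 196 and 149 CPM. ACTB at 753 CPM and TUBB4B at 302 CPM lay within the range of the T0 pulldowns.

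Over the 20 unstressed libraries, the transcripts whose log2 CPM most closely followed the members' mean were ENSG00000086598.9 (Pearson r = 0.952) and ENSG00000111669.13 (r = 0.923), out of 2066 tested IDs averaging 5 or more on that scale. The libraries share their construct, fraction and scaling, so these values describe a common profile over the same 20 points.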

How the data were processed

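The deposited values are whole-number counts per Ensembl gene ID in 2 tables, made by the authors with cutadapt, HISAT2 and featureCounts on GRCh38, per the submitters' processing notes, which carry no versions. The library kit was directional per the labels. Whether counting used strand, and how multiply matching reads were handled, is not given in the sources used here. No molecular identifiers are named, so the intervals of CPM values cover counting error only; those of log2 differences come from the fit's SE. Nothing says that replicates came from separate cultures, so p-values measure only how far these libraries differed, possibly for technical reasons. No pair of replicates was identical (chi-square per ID 1.31 to 77.3).

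Each table was fitted whole in edgeR 4.0.16 (R 4.3.3) with 1 mean per group, TMM scaling, filterByExpr (minimum count 10) and the robust quasi-likelihood test. The p-values were adjusted over all tested IDs by Benjamini-Hochberg and called at 0.05. SE is the absolute log2 fold change divided by the square root of F. Input-adjusted values are differences of pulldown-over-input contrasts. DESeq2 1.42.0, total-count scaling, no filter, fewer libraries, families summed and a replicate block were alternatives; scaling without the 10 most counted IDs, fits within a fraction and a crossed block were chosen after seeing the data. All 8 members are named; full values go to called members or, where none was called, to the member with the largest change. The members and lists were chosen with earlier results of these data known. Lists of other cytoskeletal genes and cell markers could not be applied, since the reference gene table pairs no Ensembl IDs with symbols. Deviations of same-numbered libraries correlated at -0.07 to 0.14 between input and pulldown, so the numbers were not taken as pairs.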

Additional observations from a re-analysis of the deposited data

Results flagged for a closer look

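The T4 heat shock condition, with 1 pulldown and no replicate, entered no test. Its pulldown held 3 of the 8 mRNAs above both T0 pulldowns with 95% counting intervals apart, as it did 8.21% of all tested IDs and 11.3% of those averaging 5 or more on the log2 CPM scale: TUBA1A at 518 CPM (interval 468 to 571), against 249.8 and 296 CPM at T0; TUBA1B at 1671 CPM (interval 1580.4 to 1765), against 1044 and 1223 CPM; and VIM at 988 CPM (interval 918 to 1061), against 635 and 816 CPM. In the T4 input the same mRNAs stood at 368, 1465 and 1219.9 CPM. The spread between cultures at T4 was not measured, and the 2 T0 pulldowns themselves differed beyond counting error (chi-square per ID 16.7).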

How the results depend on the processing

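Calls of single members depended on the scaling, the tool, the libraries fitted and single libraries; the cause was not tested. With total-count scaling, called members numbered 0 for CBX1 and 1 for C1 (pulldown over input), turned to 4 higher for eIF4E and 4 higher for eIF4A, and were 7 (eIF4E) and 3 (eIF4A) in inputs against GFP and 1 at T0 (pulldown over input). Under it TUBA1B with eIF4E stood at 0.18, TUBA1A with eIF4A at 0.18, VIM with eIF4A at 0.18 and the input-corrected VIM difference of eIF4A and GFP at 0.20. Scaling without the 10 most counted IDs, an alternative added after seeing the data, left 0 calls for eIF4E and 0 for eIF4A and made 1 at T0, and without a count filter both eIF4E and eIF4A had 0. DESeq2 called 2 (eIF4E) and 5 (eIF4A) in pulldown over input, and 1 (C1) and 1 (eIF4A) in inputs against GFP. Fitting only the libraries compared gave 0 (C1), 4 (GFP) and 6 (eIF4A) in pulldown over input, and 1 (CBX1), 2 (C1), 4 (eIF4E) and 3 (eIF4A) in inputs against GFP; fitting only inputs gave 2, 4 and 3 for the last 3 of these. Without input correction, 3 (C1 with GFP), 3 (eIF4E with GFP), 1 (eIF4A with GFP) and 3 (CBX1 with C1) were called, with TUBA1C for eIF4E at -0.035 and VIM for eIF4A at 0.22. Summed with ACTG1, the ACTB difference of hippuristanol and DMSO became -0.0805. Leaving out 1 library at a time, called members ranged from 0 to 5 (CBX1), 0 to 8 (C1), 0 to 1 (GFP), 0 to 1 (eIF4E) and 0 to 0 (eIF4A) in pulldown over input, 0 to 1 for input-corrected C1 with GFP and 0 to 1 for eIF4E inputs, and were 0 in the other 15 comparisons of 22. With a replicate block the counts were 6 (CBX1), 5 (C1), 0 (GFP), 1 (eIF4E) and 2 (eIF4A), 1 for eIF4E inputs and 0 in the other 16, a blocked result in which the samples share only a number. For T20 and T0 inputs, where same-numbered libraries deviated with r = -0.70, a crossed replicate block called 0 members and 2069 of all tested IDs, against 7. Of the estimates of single members, each under 1 alternative, 297 kept their direction and side of the threshold, 61 lost a call and 12 gained one. Calls among all tested IDs, with their range over the alternatives, were, in pulldown over input, CBX1 484 (86 to 897), C1 803 (15 to 3246), GFP 502 (139 to 701), eIF4E 312 (99 to 4484) and eIF4A 270 (88 to 3878). These ranges are not tied to single alternatives. The counts of called members above are mostly given without the share of all tested IDs called under the same alternative. They show how the calls of members moved, not how the members compared with other IDs. The 2 libraries per group and, for TUBB, counts as low as 43 limit what could be called.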

Other observations

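The unstressed table and the T0 libraries of the stress table both hold unstressed APEX-eIF4A cells, yet their mixture of alpha-tubulin counts differed. TUBA1B made up 33.9% ± 0.532 of alpha-tubulin counts in the unstressed eIF4A inputs and 66.3% ± 0.403 in the T0 inputs (SD, n = 2 each). The same gap was found over all inputs, at 32.5% to 37.9% in the 10 unstressed inputs and 65.6% to 68.7% in the 8 stress inputs, while TUBA1A took 35.9% to 41.8% and 15.7% to 18.1%. VIM counts per 100 ACTB counts were 46.3 ± 3.66 in the unstressed eIF4A inputs and 130.1 ± 0.702 in the T0 inputs (SD, n = 2 each). Tables and experiments cannot be told apart, and the difference was not tested. Within the stress inputs, VIM per 100 ACTB was 139 at T4, 122 ± 10.3 at T20, 83.8 with DMSO and 80.8 ± 5.06 with hippuristanol.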
